A study of Homo sapiens with 12 samples.

Results

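Transcripts of 10 genes that write or remove DNA methylation or that build Polycomb repressive complex 2 (PRC2) were measured in 3 gastric cancer cell lines, each sorted into a CD133+ and a CD133- fraction. The genes were DNMT1, DNMT3A, DNMT3B, UHRF1 and TET1, of the DNA methylation system, and EZH1, EZH2, EED, SUZ12 and JARID2, of PRC2. They were chosen by name for what they do, out of 34595 genes with a value. CD133, the product of PROM1, is a membrane protein used to isolate gastric cancer stem cells. KATO-III, SNU-216 and SNU-601 were established gastric carcinoma lines, with no treatment named, and the sort took the brightest and the dimmest cells after staining for CD133. Each of the 6 populations was measured on 2 Illumina HT-12 v3 BeadChips, 12 arrays in all. The array labels name SNU-216 where the design text of the series names SNU201, and the labels were followed. Nothing stated whether the 2 arrays of a population came from separate sorts, so p-values measure the spread between these arrays, which may be technical.

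DNA methylation is written on new sites by DNMT3A and DNMT3B and copied after replication by DNMT1, which UHRF1 guides to hemimethylated DNA, while TET1 oxidises the mark as the first step of its removal. PRC2 methylates lysine 27 of histone H3 through its catalytic subunit EZH2, or EZH1 in cells that divide less. EED binds the finished mark, SUZ12 holds the complex together, and JARID2 helps to bring it to its targets. Both systems keep genes silent, the HOX genes being the classic Polycomb targets. DNMT1, UHRF1 and EZH2 are known to be transcribed most in dividing cells, and their promoters are bound by E2F factors.

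The sort was visible in PROM1, which rose in CD133+ cells of each line, by 1.10, 2.02 and 1.86 on the log2 scale in KATO-III, SNU-216 and SNU-601 (limma adjusted p from 3.02e-07 to 5.65e-06). PROM1 was at 9513 and 8847 against 4056 and 4493 in KATO-III, at 9273 and 8773 against 2232 and 2219 in SNU-216, and at 4877 and 4677 against 1315 and 1324 in SNU-601. By this RNA, the dim fraction of KATO-III lay close to the bright fraction of SNU-601, so CD133- does not mean that PROM1 RNA was absent. The sort itself was set on surface staining, the authors taking CD133- cells where the stain overlapped the isotype control. RNA and staining need not rank the populations alike. All 6 rows of gastric epithelial markers passed the intensity floor described below on each of the 12 arrays. Among them EPCAM also had a row under its older symbol, TACSTD1. Their summed intensity, which counts both of these rows, was 55290 to 62730 in CD133+ and 54950 to 65090 in CD133- arrays. CDH1 was called in each line, at -0.70 in KATO-III, 0.30 in SNU-216 and -0.25 in SNU-601 (limma adjusted p from 6.83e-05 to 0.03615). KRT18 was called lower in SNU-216 (-0.39, adjusted p = 0.01758). The TACSTD1 row was called higher in KATO-III (0.11, adjusted p = 0.04015) and lower in SNU-216 (-0.13, adjusted p = 0.02509). KRT8, KRT19 and the EPCAM row were called in none. The 4 endothelial markers were never above the floor. The 5 fibroblast markers summed to 97.65 to 201.1 in CD133+ and 24.15 to 830.2 in CD133- arrays, with COL3A1 and DCN never above the floor. The 5 leukocyte markers summed to 205.7 to 1279 and 424 to 1679, with PTPRC and CD3E never above it. LUM, a fibroblast marker, was lower in CD133+ cells of KATO-III, at 64.41 and 91.64 against 743.3 and 782.5 (-3.31, adjusted p = 1.73e-06), and higher in those of SNU-216 (0.90, adjusted p = 0.003227). CD68, a macrophage marker, was lower in CD133+ cells of each line (-1.36, -1.13 and -0.46, the last with an adjusted p of 0.02315 that was lost without CD133+ replicate 2 or either CD133- array of SNU-601, up to 0.1299). The part of these differences in the results was not tested.

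Intensities here are linear, background-subtracted and quantile-normalized by the authors. Values under 32.7 were raised to this floor before log2 was taken, since the lowest 1% of all values reached down to -32.7 or further. Of the 10 genes, 8 passed the filter of at least 2 arrays above the floor and were tested. The plot of intensities by array gives every value. DNMT1 and SUZ12 had their lowest values at 7856 and 9461, UHRF1 at 2687, EZH2 at 761 and JARID2 at 685.1. DNMT3B ranged from 84.39 to 193, EED from 24.41 to 218.9 and EZH1 from 11.5 to 131.7, and the last 2 each fell under the floor on 1 array. Intensities of different probes cannot be ranked against each other, so each gene is compared with itself only.

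**Figure D1:**
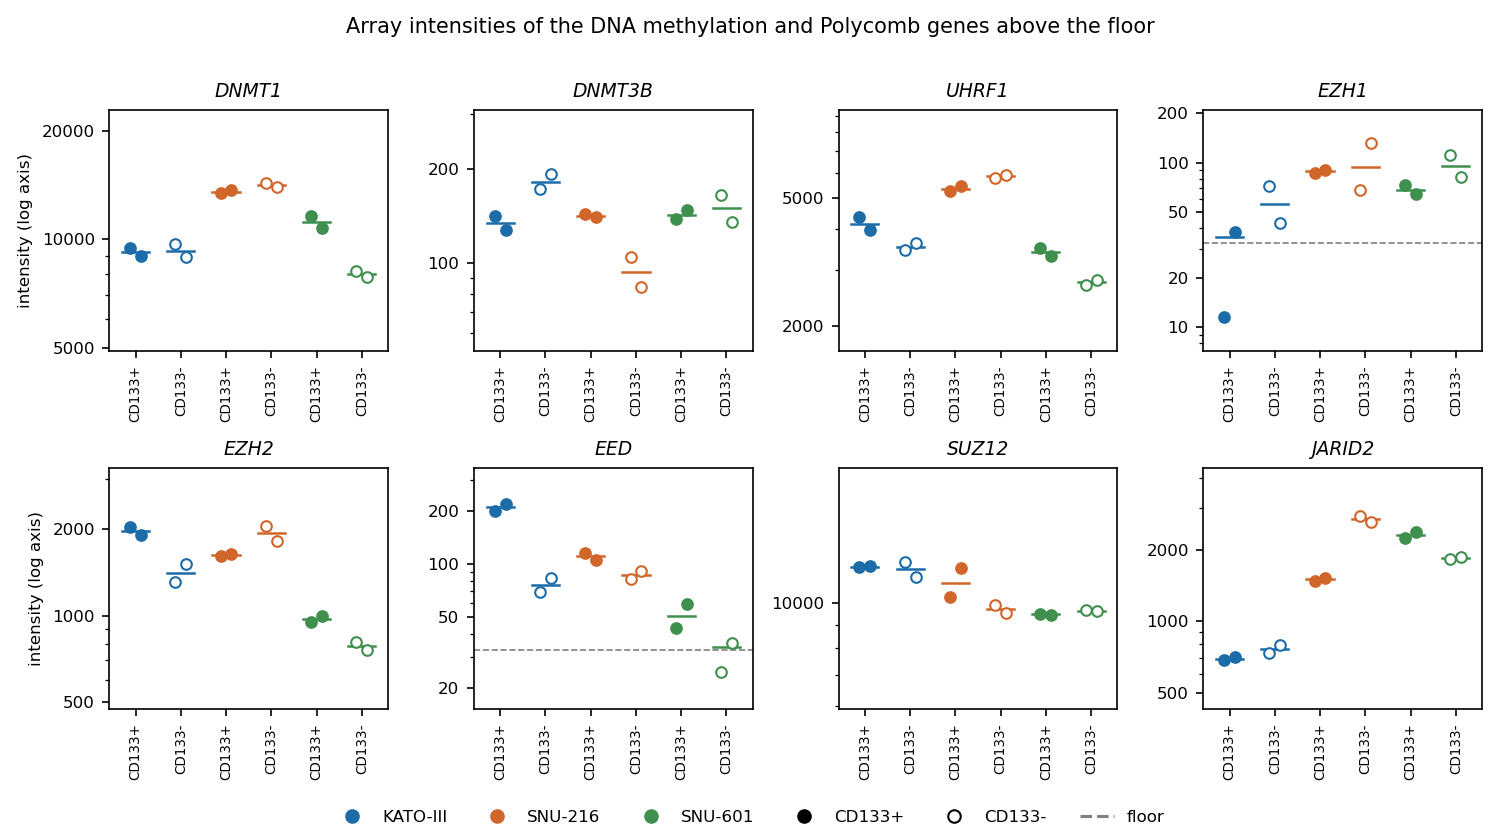
Intensity on a log axis of the 8 tested genes on each of the 12 arrays, in CD133+ (filled) and CD133- (open) cells of the 3 lines; short lines are the means of 2 arrays on the log2 scale and the dashed line is the floor of 32.7. JARID2 is lowest in KATO-III, EZH2 lowest in SNU-601, and EED highest in the CD133+ cells of KATO-III.

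DNMT3A and TET1 stayed under the floor throughout. DNMT3A, a de novo methyltransferase, ran from -11.87 to 8.319 with a median of 1.79. TET1 ran from -35.64 to 11.05, and a second row under its older symbol CXXC6 from -4.444 to 10.83. Neither gene was detectable with these probes, and neither was tested. TET2, of the same family, was also never above the floor.

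The promoter windows of 4 genes are shown, those of DNMT1, UHRF1, EZH2 and EED. UHRF1, EZH2 and EED were called higher in CD133+ cells of KATO-III, and DNMT1, UHRF1, EZH2 and JARID2 in those of SNU-601. Each is the first RefSeq window of the gene on GRCh38.p14, from 250 bases before to 50 bases after the start, read in the direction of transcription. DNMT1 is at chr19:10194904-10195203 on the minus strand, UHRF1 at chr19:4909251-4909550 on the plus strand, EZH2 at chr7:148884242-148884541 on the minus strand and EED at chr11:86244503-86244802 on the plus strand. UHRF1 has 3 windows listed and EZH2 2. Capitals mark E2F letters, searched as TTTCCCGC, TTTCGCGC, TTTGCCGC and TTTGGCGC on both strands.
DNMT1: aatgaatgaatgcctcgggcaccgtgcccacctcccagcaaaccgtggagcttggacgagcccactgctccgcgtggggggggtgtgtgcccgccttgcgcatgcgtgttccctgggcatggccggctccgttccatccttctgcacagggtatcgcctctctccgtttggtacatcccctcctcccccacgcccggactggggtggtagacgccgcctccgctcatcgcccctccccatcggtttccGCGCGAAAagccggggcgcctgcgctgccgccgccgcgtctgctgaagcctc
UHRF1: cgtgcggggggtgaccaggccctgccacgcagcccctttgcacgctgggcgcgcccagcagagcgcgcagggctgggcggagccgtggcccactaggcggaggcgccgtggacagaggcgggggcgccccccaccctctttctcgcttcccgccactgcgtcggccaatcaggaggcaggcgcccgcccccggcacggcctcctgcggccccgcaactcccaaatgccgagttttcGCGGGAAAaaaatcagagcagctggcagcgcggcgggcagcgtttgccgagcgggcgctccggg
EZH2: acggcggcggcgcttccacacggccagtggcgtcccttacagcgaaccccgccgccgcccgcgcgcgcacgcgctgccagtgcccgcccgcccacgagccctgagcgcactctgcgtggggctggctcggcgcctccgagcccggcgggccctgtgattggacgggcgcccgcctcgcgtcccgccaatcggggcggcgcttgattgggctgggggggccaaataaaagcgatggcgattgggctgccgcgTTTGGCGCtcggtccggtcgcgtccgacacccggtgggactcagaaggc
EED: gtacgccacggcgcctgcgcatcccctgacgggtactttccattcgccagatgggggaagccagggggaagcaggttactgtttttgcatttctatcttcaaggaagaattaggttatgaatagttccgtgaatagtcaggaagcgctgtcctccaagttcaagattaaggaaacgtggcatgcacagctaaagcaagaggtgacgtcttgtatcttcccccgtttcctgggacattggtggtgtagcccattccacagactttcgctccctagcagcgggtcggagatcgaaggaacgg
The match in DNMT1 (TTTCGCGC, read on the other strand) began 2 bases before the start, and that in UHRF1 (TTTCCCGC, other strand) 14 bases before it. EZH2 held TTTGGCGC 1 base after the start, and EED held none of the letters. Nor did JARID2, whose window is not shown though it too was called higher in SNU-601. Over the first windows of the 10 genes, 5 held a match, the others being EZH1 and SUZ12, and 3.33% of 27305 genes with a window did. GC content was 68.3% in DNMT1, 74% in UHRF1, 74.7% in EZH2 and 52.3% in EED, against a median of 58.3% over all first windows. A match of letters is a description and says nothing of what binds there in these cells.

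DNMT1, the maintenance methyltransferase, was higher in the CD133+ cells of SNU-601 and not in the other two lines. The SNU-601 CD133+ arrays read 11591 and 10784 and the CD133- arrays 8180 and 7856, so the fractions did not overlap. The log2 change was 0.48 (SE 0.0561, 2 arrays a fraction, limma adjusted p = 9.69e-04), a 1.39-fold difference. In KATO-III, 9474 and 8967 stood against 9688 and 8913, a log2 change of -0.01 with a 95% interval, not adjusted for the number of genes, of -0.14 to 0.12. In SNU-216, 13471 and 13679 stood against 14310 and 13953, a log2 change of -0.06 with an interval of -0.19 to 0.07. Across the 6 populations DNMT1 was highest in both SNU-216 fractions, which did not differ beyond their spread (adjusted p = 0.5433), then in SNU-601 CD133+, then in both KATO-III fractions, and lowest in SNU-601 CD133-. In bulk RNA, a lower value can be fewer expressing cells or less RNA per cell, which cannot be told apart. Whether the arrays of the fractions overlap is given here and below as a description. With 2 arrays a fraction such separation is weak evidence, and its share over all genes was not counted.

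UHRF1, the partner that recruits DNMT1 to hemimethylated DNA, was higher in CD133+ cells of both KATO-III and SNU-601. In KATO-III it read 4362 and 3966 in CD133+ and 3449 and 3621 in CD133- cells, a log2 change of 0.24 (SE 0.0564, adjusted p = 0.009628). In SNU-601 it read 3511 and 3302 against 2687 and 2793, a log2 change of 0.31 (adjusted p = 0.006425). Neither pair of fractions overlapped. In SNU-216 the order was the other way, at 5250 and 5444 against 5790 and 5875, but this change of -0.13 was not called (adjusted p = 0.1411). The KATO-III call was lost without CD133+ replicate 1 (0.17, adjusted p = 0.05951) or CD133- replicate 1 (0.20, adjusted p = 0.06473). Over the populations UHRF1 was highest in both SNU-216 fractions, then lower by 0.36 in KATO-III CD133+ (adjusted p = 4.17e-04). KATO-III CD133- and SNU-601 CD133+ followed and did not pass the test against each other (adjusted p = 0.5143), and SNU-601 CD133- was lowest.

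DNMT3B, the de novo methyltransferase that was above the floor, was called in opposite directions in 2 lines, the KATO-III call lying near the threshold. KATO-III CD133+ arrays read 142 and 128 against 172 and 193, a log2 change of -0.44 (SE 0.151, limma adjusted p = 0.04663). SNU-216 CD133+ arrays read 144 and 140 against 105 and 84.4, a log2 change of 0.60 (SE 0.151, adjusted p = 0.0167). In SNU-601 the fractions overlapped, at 139 and 147 against 166 and 136, with a change of -0.07 (95% interval -0.41 to 0.27). These values were a few times the floor. The KATO-III call was lost in 8 of 12 fits that left out 1 array, namely any KATO-III array or any CD133+ array of SNU-216 or SNU-601, where the adjusted p reached 0.2025. With all arrays in, it was also lost with a floor of 16 (adjusted p = 0.06333), with no filter on dim genes (0.08104), with the replicate block (0.0511), and under both other scalings of the arrays, centring on the median (-0.39, 0.06889) and a second quantile normalization (-0.39, 0.0685). The SNU-216 call was lost without CD133+ replicate 1, CD133+ replicate 2 or CD133- replicate 2, with adjusted p of 0.07625, 0.06005 and 0.09734. The only step between neighbouring populations that passed the test was from KATO-III CD133+ down to SNU-216 CD133- (0.52, adjusted p = 0.01486).

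EZH2, the catalytic subunit of PRC2, was higher in CD133+ cells of KATO-III and SNU-601 and lower in those of SNU-216. KATO-III read 2038 and 1917 in CD133+ and 1313 and 1512 in CD133- cells, a log2 change of 0.49 (SE 0.0801, adjusted p = 0.001265). SNU-601 read 950 and 996 against 809 and 761, a change of 0.31 (adjusted p = 0.03047). SNU-216 read 1614 and 1636 against 2047 and 1826, a change of -0.25 (adjusted p = 0.04523). In all 3 lines the 2 arrays of one fraction lay on one side of the other fraction. The KATO-III call held in all 12 fits that left out 1 array. The SNU-601 call was lost without any SNU-601 array or any CD133+ array of KATO-III or SNU-216 (adjusted p up to 0.1523). That in SNU-216 was lost in 9 of the 12 fits and held without either KATO-III CD133- array or SNU-216 CD133- replicate 2, with adjusted p up to 0.2513. With all arrays in, the SNU-216 call was lost with a floor of 16 (adjusted p = 0.05204), with no filter on dim genes (0.1171), with no trend of variance on intensity (0.08143) and with the replicate block (0.06213). The SNU-601 call was lost with no filter (0.08776) and with no trend (0.06173). Over the populations KATO-III CD133+ and SNU-216 CD133- were highest and did not pass the test against each other (adjusted p = 0.7747). Both SNU-601 fractions were lowest, SNU-601 CD133+ lying 0.53 under KATO-III CD133- (adjusted p = 4.26e-04).

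EED, the subunit that binds methylated lysine 27, had the largest difference of the 8 genes between the fractions of one line. In KATO-III it read 199 and 219 in CD133+ and 69.2 and 83.0 in CD133- cells, a 2.75-fold difference or 1.46 on the log2 scale (SE 0.177, adjusted p = 2.18e-04). That call held in all 12 fits that left out 1 array. In SNU-601 it read 43.5 and 59.6 against 24.4 and 35.8, where 1 array was under the floor and set to it, and the change of 0.57 was not called (adjusted p = 0.05964). It was called without CD133+ replicate 1 of SNU-601 (0.80, adjusted p = 0.02958), with each array centred on its median (0.61, adjusted p = 0.04832) and with the replicate block (0.57, adjusted p = 0.04654). In SNU-216 it read 116 and 105 against 82.7 and 91.1, a change of 0.35 with an interval of -0.06 to 0.75 (adjusted p = 0.1993). The CD133+ arrays lay above the CD133- arrays in each line, which is a description only, as the changes in SNU-216 and SNU-601 were not called. Over the populations, SNU-216 CD133+ lay 0.92 under KATO-III CD133+ (adjusted p = 0.001614), the steps through SNU-216 CD133- to KATO-III CD133- did not pass the test, and SNU-601 CD133+ lay 0.57 under KATO-III CD133- (adjusted p = 0.0248).

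SUZ12, the scaffold of PRC2, passed the test between fractions in no line. Its log2 changes were 0.02, 0.19 and -0.03 in KATO-III, SNU-216 and SNU-601, with 95% intervals of -0.13 to 0.17, 0.04 to 0.34 and -0.18 to 0.13. The SNU-216 arrays read 10318 and 11920 in CD133+ and 9900 and 9539 in CD133- cells, without overlap. Without CD133+ replicate 1 of SNU-216 that change was 0.29 and was called (adjusted p = 0.008949). With all arrays in, it was called with a floor of 100 (adjusted p = 0.04353), with an offset of 100 in place of the floor (0.04166), with a second quantile normalization (0.04724) and among genes above the floor on all 12 arrays (0.03043). SUZ12 has a near-identical partial copy in the genome, and whether its probes also read the copy is not known. The row named for the copy, SUZ12P, was never above the floor (3.61 to 26.2).

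EZH1, the second catalytic subunit, was near the floor and passed the test between fractions in no line. Its CD133+ arrays read 11.5 and 38.1 in KATO-III, 87.3 and 90.0 in SNU-216 and 73.0 and 64.9 in SNU-601. The CD133- arrays read 72.5 and 43.2, 67.9 and 132, and 112 and 82.0. The changes of -0.67, -0.09 and -0.48 carried an SE of 0.335 each, and their intervals all included 0. No step between neighbouring populations passed the test for EZH1 or for SUZ12. At this intensity a change of the size seen in EZH2 could not be told from the spread.

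JARID2, which helps PRC2 to reach its targets, fell in the CD133+ cells of SNU-216 and rose in those of SNU-601. SNU-216 read 1481 and 1513 in CD133+ and 2768 and 2607 in CD133- cells, a log2 change of -0.84 (SE 0.0543, adjusted p = 1.43e-05), or 1.79-fold lower. SNU-601 read 2246 and 2373 against 1825 and 1857, a change of 0.33 (adjusted p = 0.004556). Both calls held whichever array was left out. KATO-III read 685 and 704 against 731 and 789, a change of -0.13 that was not called (adjusted p = 0.09418) and that was called without CD133- replicate 1 (-0.19, adjusted p = 0.046). From SNU-216 CD133- downward through SNU-601 CD133+, SNU-601 CD133-, SNU-216 CD133+ and KATO-III CD133-, each of these populations differed from the next (adjusted p from 3.31e-07 to 0.007553), and KATO-III CD133+ was last.

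Counted over the 8 tested genes, 4 were called in KATO-III, where 39.3% of all 20147 genes tested were called. UHRF1, EZH2 and EED rose and DNMT3B fell, and under both other scalings 3 were called and 0 lower, since DNMT3B was no longer called by limma. In SNU-216, 3 were called against 28.6% of all genes, with DNMT3B higher and EZH2 and JARID2 lower. In SNU-601, 4 were called against 16.4% of all genes, and DNMT1, UHRF1, EZH2 and JARID2 were all higher, where 8.59% of all genes were called higher and 7.78% lower. The median log2 change of the 8 genes was 0.00, -0.08 and 0.31 in the 3 lines, and that of all genes was 0.00 in each. The plot of differences within each line shows that no gene of the 8 was called in the same direction in all 3 lines, as 1.06% of all genes were. EZH2 was called in all 3, its SNU-216 and SNU-601 calls being lost under the settings given above, as were 4.97% of all genes, and 6 of the 8 were called in at least 1 line, against 56.2% of all genes.

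**Figure D2:**
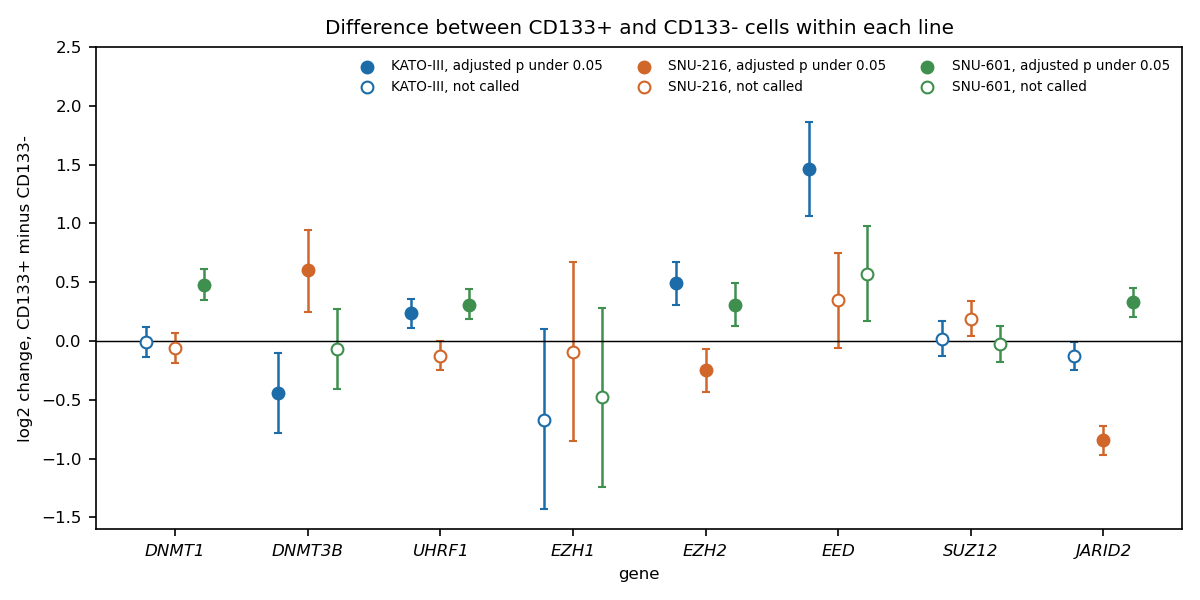
Log2 change between CD133+ and CD133- cells for the 8 tested genes in each line, with 95% intervals from limma (2 arrays a fraction); filled points passed an adjusted p of 0.05. EED in KATO-III stands at 1.46 and JARID2 in SNU-216 at -0.84.

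Over the 3 lines together, with the line as a block, EED was the only gene of the 8 called, where 4.73% of all genes were called, 2.62% higher and 2.11% lower. Its log2 change was 0.79 (SE 0.18, 6 arrays a fraction, adjusted p = 0.03464). It was 0.46 without KATO-III and no longer called (adjusted p = 0.1562), and 0.90 without SNU-601 (adjusted p = 0.05717). Leaving out 1 array ended the call in 8 of 12 fits, namely without any KATO-III array, replicate 1 of either SNU-216 fraction, SNU-601 CD133+ replicate 2 or SNU-601 CD133- replicate 1, with changes of 0.68 to 0.83 and adjusted p up to 0.08953. Averaging the arrays of each population first gave EED an adjusted p of 0.7961, and a random block for the population gave 0.2616. Without SNU-216, EZH2 (0.40, adjusted p = 0.02648) and UHRF1 (0.27, adjusted p = 0.02665) were called as well. The test of whether the difference between fractions itself differed between lines called 6 of the 8, where 44.4% of all genes were called. Its adjusted p was 2.65e-05 for JARID2, 0.001042 for DNMT1, 0.001774 for EZH2, 0.003936 for UHRF1, 0.01005 for DNMT3B and 0.01268 for EED. EZH1 (0.6) and SUZ12 (0.1789) did not pass. The EED call was lost without KATO-III CD133+ replicate 2 (adjusted p = 0.0516), without KATO-III CD133- replicate 1 (0.0525) and with a floor of 16 (0.07074), and SUZ12 passed without SNU-216 CD133+ replicate 1 (0.01856).

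The genes also differed between lines, as averages over both fractions. The 3 comparisons of lines share arrays, since each line enters 2 of them. SNU-216 differed from KATO-III in 7 of the 8, against 62.0% of all genes, with 4 higher and 3 lower (31.7% and 30.3% of all genes). SNU-601 differed from KATO-III in 6, against 58.6%, with 2 higher and 4 lower (29.9% and 28.7%). Against SNU-216, SNU-601 differed in 5, against 56.5%, with 1 higher and 4 lower (27.1% and 29.4%). UHRF1 and EED differed in all 3 pairs of lines, as did 32.9% of all genes. JARID2 was 2.76-fold higher in SNU-216 and 2.84-fold higher in SNU-601 than in KATO-III (log2 1.47 and 1.51, adjusted p of 1.04e-09 and 1.63e-09), while SNU-601 and SNU-216 did not differ (0.04, adjusted p = 0.434). EZH2 was lower in SNU-601 by 1.91-fold than in KATO-III and by 2.03-fold than in SNU-216, and the other two lines did not pass the test against each other (0.09, adjusted p = 0.2201).

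EED was lower in SNU-601 too, by 3.01-fold against KATO-III and 2.34-fold against SNU-216. UHRF1 was highest in SNU-216 and lowest in SNU-601, with log2 changes of 0.54 from KATO-III to SNU-216 and -0.87 from SNU-216 to SNU-601. DNMT1 was higher in SNU-216 than in either other line (0.58 against KATO-III, and -0.55 for SNU-601 against it). SUZ12 was highest in KATO-III, with changes of -0.20 and -0.32 to SNU-216 and SNU-601. DNMT3B was lower in SNU-216 than in KATO-III (-0.44, adjusted p = 0.005524). EZH1 was higher in SNU-216 and SNU-601 than in KATO-III (1.04 and 0.87). With a floor of 100, which lies above most EZH1 values, its changes were 0.10 and 0.04 and were not called. With that floor EED between SNU-601 and SNU-216 was at -0.07 and not called either (adjusted p = 0.1903). Other calls changed when 1 array was left out or with other settings. SNU-601 against KATO-III for EZH1 was lost without KATO-III CD133+ replicate 1 (adjusted p = 0.05161). EED between SNU-216 and KATO-III (-0.36, adjusted p = 0.03149) was lost without replicate 2 of either KATO-III fraction, SNU-216 CD133+ replicate 2 or SNU-216 CD133- replicate 1, with adjusted p up to 0.1, and also with a floor of 16 (0.1024) and with no filter (0.08636). DNMT3B between SNU-601 and SNU-216 (0.34, adjusted p = 0.02103) was lost without replicate 2 of either SNU-216 fraction, SNU-601 CD133+ replicate 2 or SNU-601 CD133- replicate 1, up to 0.0723. SUZ12 between SNU-601 and SNU-216 (-0.12, adjusted p = 0.05663) was called without SNU-216 CD133+ replicate 1 (-0.17, adjusted p = 0.003803), and also with a floor or an offset of 100, under both other scalings and among genes above the floor on all 12 arrays (adjusted p from 0.01236 to 0.04266).

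The list of other PRC2 subunits and of the demethylases that remove its mark held 8 genes, all tested. Of these, 4 were called in each line (3 higher in KATO-III, 2 in SNU-216 and 1 in SNU-601), against 39.3%, 28.6% and 16.4% of all genes called in KATO-III, SNU-216 and SNU-601. UTX, the older symbol of the demethylase KDM6A, read 2259 and 2347 in SNU-216 CD133+ and 745.8 and 723 in CD133- cells, a log2 change of 1.65 (SE 0.0502, adjusted p = 3.26e-07). It was lower in CD133+ cells of KATO-III, at 344.1 and 359.1 against 460.5 and 451 (-0.37, adjusted p = 3.91e-04), and of SNU-601, at 815.5 and 789.1 against 977.9 and 988.5 (-0.29, adjusted p = 0.005127). Thus in SNU-216 the demethylase gene was higher where EZH2 and JARID2 were lower.

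RBBP7, a histone-binding subunit, rose by 1.50 in KATO-III, from 2036 and 2252 to 5688 and 6470, and its homologue RBBP4 fell by 0.51 in SNU-216 (adjusted p = 0.00175). PHF19, an accessory subunit that binds lysine 36 methylation, fell by 0.48 in SNU-216 and rose by 0.62 in SNU-601, the same directions as JARID2. PHF19 read 1085 and 1081 against 1478 and 1536 in SNU-216, and 655.9 and 669.6 against 427.7 and 433.5 in SNU-601. PHF1, a relative of PHF19, rose by 0.52 in KATO-III. In SNU-601, the demethylase KDM6B (-0.99, adjusted p = 0.03797) and the accessory subunit AEBP2 (-0.33, adjusted p = 0.01905) were lower in CD133+ cells. The KDM6B call was lost in 7 of 12 fits, those without any SNU-216 array, SNU-601 CD133+ replicate 2 or either SNU-601 CD133- array (adjusted p up to 0.1936). The AEBP2 call was lost without SNU-601 CD133+ replicate 2 or either SNU-601 CD133- array (up to 0.1078).

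**Figure D3:**
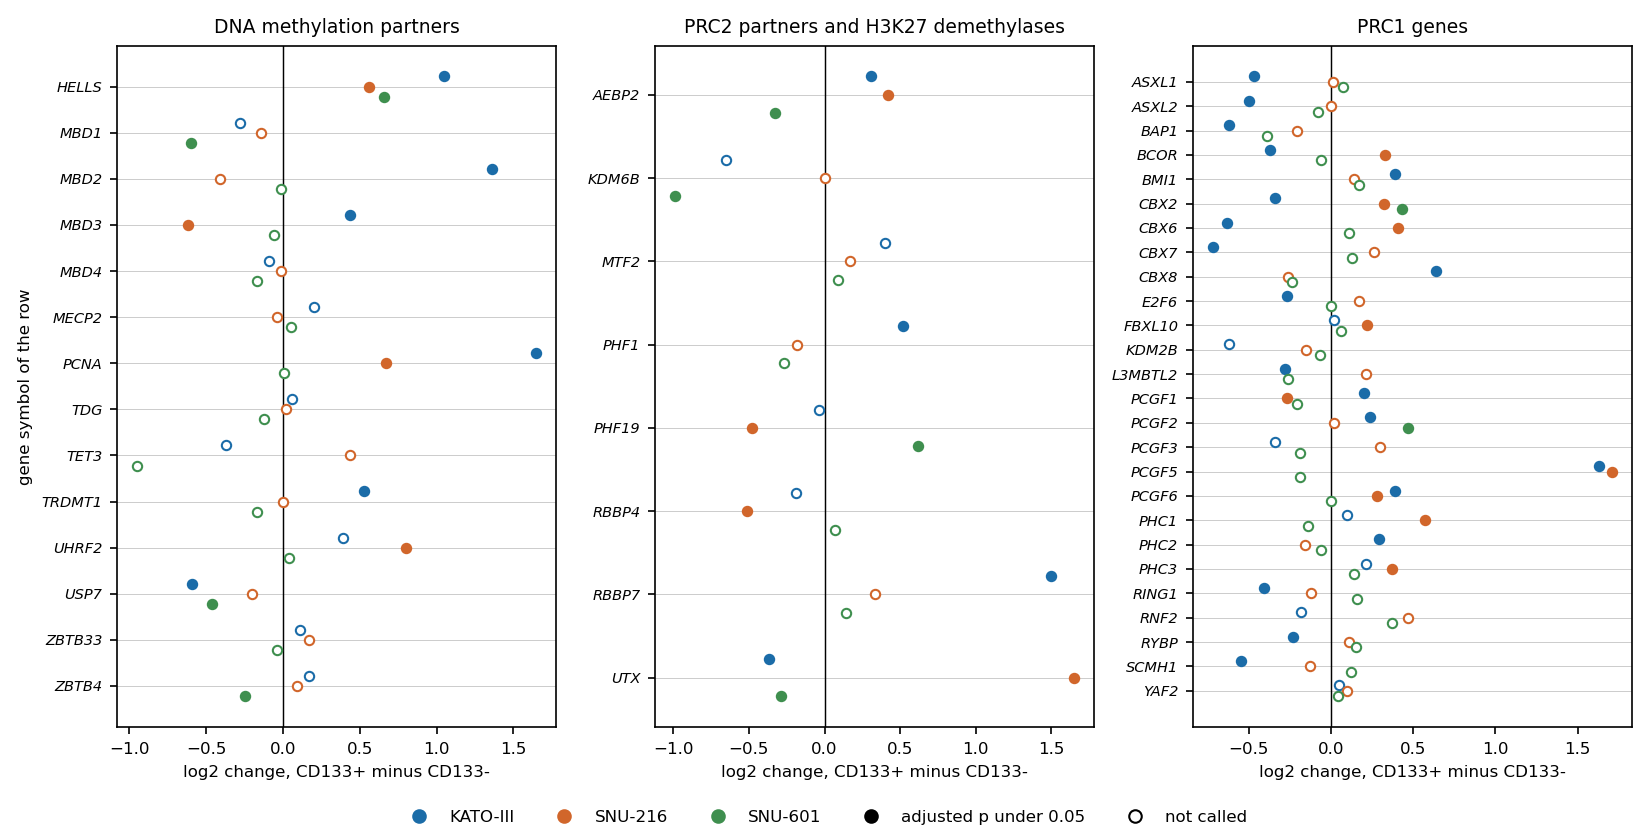
Log2 change between CD133+ and CD133- cells of the tested genes of 3 lists in each line (1 PRC1 gene is not drawn): partners of DNA methylation, other PRC2 subunits with the demethylases of lysine 27, and PRC1. Filled points passed a limma adjusted p of 0.05; UTX in SNU-216 stands at 1.65, against -0.37 and -0.29 in the other two lines.

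Among other genes that write, read or help DNA methylation, 14 of 16 were tested, and 6 were called in KATO-III, 4 in SNU-216 and 4 in SNU-601, against the same 39.3%, 28.6% and 16.4% of all genes. HELLS, a remodeler needed for DNA methylation at repeats, was called higher in CD133+ cells of each line, by 1.05, 0.56 and 0.66. It read 760.3 and 902.8 against 398.8 and 399.3 in KATO-III, 1060 and 866.1 against 671.8 and 629.6 in SNU-216, and 210 and 239.3 against 132.1 and 152.7 in SNU-601. Over all lines its log2 change was 0.76 (adjusted p = 0.008095), called in all 12 fits that left out 1 array but lost, with every other call over all lines, when the arrays of a population were averaged first. The SNU-216 call was lost without CD133+ replicate 1 or CD133- replicate 2 (adjusted p up to 0.08329), and the SNU-601 call without CD133+ replicate 2 or CD133- replicate 1 (up to 0.06271). The share of all genes called in the same direction in all 3 lines was 1.06%.

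PCNA, the replication clamp on which DNMT1 rides, rose by 1.65 in KATO-III and by 0.67 in SNU-216, the second with an adjusted p of 0.03972 that was lost in 8 of 12 fits. Those were the fits without any SNU-216 array, either CD133+ array of KATO-III or either CD133- array of SNU-601, where the adjusted p reached 0.2444. MBD2, a reader of methylated DNA, rose by 1.36 in KATO-III, from 38.39 and 53.89 to 113.9 and 119.8. In SNU-216, UHRF2, the homologue of UHRF1, rose by 0.80 and MBD3 fell by 0.62. In SNU-601, the reader MBD1 fell by 0.60 and USP7, a deubiquitinase of DNMT1 and UHRF1, by 0.46. The MBD1 call was lost without either SNU-601 CD133+ array or SNU-601 CD133- replicate 2 (up to 0.1154), and the USP7 call without replicate 2 of either SNU-601 fraction (up to 0.08081). USP7 was the other gene of this list called over all lines (-0.42, adjusted p = 0.02333), where 4.73% of all genes were called. It was not called when any single KATO-III array was left out (adjusted p up to 0.06426).

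PRC1 ubiquitinates histone H2A, and its forms with a chromobox subunit bind sites that PRC2 has marked. Of the 27 rows of PRC1 and of the opposing deubiquitinase, 19 were called in KATO-III, 7 higher and 12 lower, against 18.7% and 20.6% of all genes. In SNU-216, 10 were called, 8 higher and 2 lower, against 14.6% and 14.0%. In SNU-601 only CBX2 (0.43) and PCGF2 (0.47) were called, both higher, where 8.59% of all genes were called higher and 7.78% lower. PCGF5, a subunit of a variant PRC1, rose by 1.63 in KATO-III and 1.71 in SNU-216. It read 276.8 and 290 against 80.45 and 104.4, and 323.6 and 212.2 against 88.41 and 72.26. In SNU-601 it read 120.6 and 65.81 against 86.39 and 119.8, with overlap, and was not called.

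The chromobox subunits, which read lysine 27 methylation, did not move together. CBX7 fell by 0.72 and CBX8 rose by 0.64 in KATO-III. PHC1, which clusters the complex, rose by 0.57 in SNU-216, a call lost without CD133+ replicate 2 or either CD133- array of that line (adjusted p up to 0.07155). Over all lines, BMI1 (0.23, adjusted p = 0.04184) and the deubiquitinase BAP1 (-0.40, adjusted p = 0.0441) were called of the 27 rows, where 4.73% of all genes were called. Each was lost in 11 of 12 fits that left out 1 array, with adjusted p up to 0.1029 and 0.1067. BMI1 held without SNU-216 CD133- replicate 2 and BAP1 without SNU-601 CD133+ replicate 2.

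UHRF1, EZH2 and EED were set beside 23 genes of S phase and mitosis, of which PCNA was also in the list of methylation partners. Of these, 18 were called in KATO-III, 15 of them higher, 6 in SNU-216, 5 of them higher, and 11 in SNU-601, all higher. Of all genes 39.3%, 28.6% and 16.4% were called in these lines, and 18.7%, 14.6% and 8.59% were called higher. Their mean log2 intensity per array was 11.47 and 11.44 in KATO-III CD133+ against 11.00 on both CD133- arrays, and 11.06 and 11.05 against 10.75 and 10.76 in SNU-601. The SNU-216 fractions lay closer, at 11.59 and 11.58 against 11.50 and 11.49. In KATO-III and SNU-601, CD133+ cells were thus higher in the proliferation genes and in UHRF1 and EZH2. In SNU-216 the proliferation mean was slightly higher in CD133+ cells while EZH2 was lower. The median log2 change of the 23 genes in SNU-216 was only 0.02, against 0.35 in KATO-III and 0.25 in SNU-601, so most of the list barely moved there. The part of proliferation in these results was not tested. Counts under the other scalings of the arrays kept these directions, with 21 called in KATO-III, 18 of them higher, when each array was centred on its median.

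**Figure D4:**
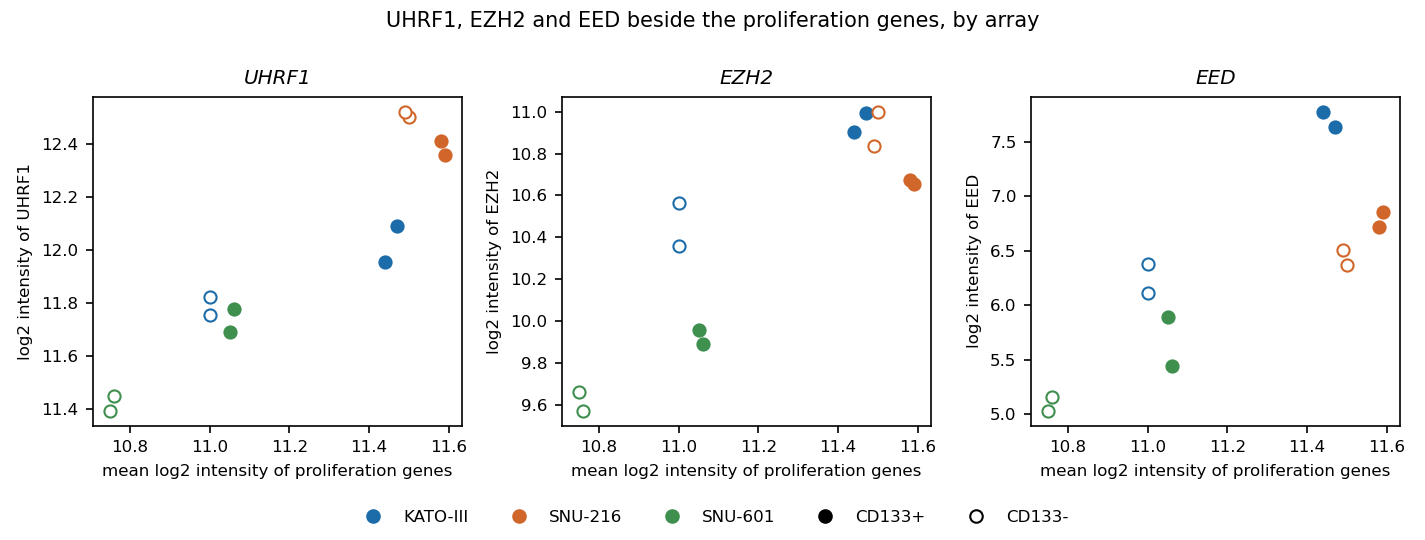
Log2 intensity of UHRF1, EZH2 and EED on each of the 12 arrays against the mean log2 intensity of 23 proliferation genes on the same array, in CD133+ (filled) and CD133- (open) cells. KATO-III and SNU-601 CD133+ arrays lie to the right of and above the CD133- arrays of their line, and SNU-216 arrays differ little along the horizontal axis.

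Across the 12 arrays, log2 values of UHRF1 correlated with those of DNMT1 (r = 0.868) and EZH2 (r = 0.835), and SUZ12 with JARID2 at r = -0.891. After each line's mean was removed the values were 0.732, 0.867 and -0.725. The 12 points are 6 populations of 2 arrays in 3 lines, so these are descriptions. By the same measure, the genes most like each member among 11673 genes above the floor on all arrays were NFKBIL2, INCENP and VKORC1 for DNMT1 (r = 0.9784 for the first), and SF3B14, C11ORF54 and YIPF6 for DNMT3B (0.9333). They were NFS1, MED30 and GINS4 for UHRF1 (0.9882), and GCLM, C11ORF83 and VKORC1L1 for EZH2 (0.985). For SUZ12 they were LOC391075, MRPL24 and UCRC (0.951), and for JARID2 FBXL12, ELL and ZNF358 (0.9888).

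Of 42 HOX genes and cell cycle inhibitors known to be held silent by Polycomb, 28 were tested. In SNU-216, 14 were called lower in CD133+ cells, where 14.0% of all genes were called lower, and the other 14 did not pass the test. In KATO-III 14 were called, 12 lower and 2 higher, against 20.6% and 18.7% of all genes. In SNU-601 5 were called, of which 4 were higher, against 16.4% of all genes called and 8.59% called higher. The median log2 change was -0.29, -0.45 and 0.00 in KATO-III, SNU-216 and SNU-601, against 0.00 over all genes. HOXA4, HOXA5, HOXA9, HOXA11, HOXB2, HOXB7, HOXB13 and CDKN2A stayed under the floor on all SNU-601 arrays, so their change there was fixed at 0.00. They could not be called in SNU-601, so its median and count do not compare evenly with those of the other lines. The same held for HOXB3, HOXB13 and CDKN1C in SNU-216 and for HOXA4 and CDKN2A in KATO-III. Under the other scalings the counts were 10 or 11 lower and 4 or 3 higher in KATO-III, and 14 lower in SNU-216.

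HOXB8 read 94.84 and 84.65 in SNU-216 CD133+ and 358.6 and 329.7 in CD133- cells (-1.94, adjusted p = 6.96e-05), and in KATO-III 1313 and 1505 against 2414 and 2454 (-0.79). The KATO-III call of HOXB8 was lost without KATO-III CD133+ replicate 1 (adjusted p = 0.05389). HOXB5 read 457.4 and 511.7 against 1150 and 1299 in SNU-216 (-1.34) and 4194 and 4202 against 6447 and 6586 in KATO-III (-0.63). In SNU-601 HOXB5 was higher in CD133+ cells, at 1467 and 1408 against 981.7 and 998.2 (0.54, adjusted p = 0.001445). HOXC8 was also called lower in SNU-216 (-1.21) and higher in SNU-601 (0.90), but its change of -0.40 in KATO-III was not called (limma adjusted p = 0.06624). JARID2 likewise fell in SNU-216 CD133+ cells and rose in those of SNU-601, which is set side by side here and was not tested.

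**Figure D5:**
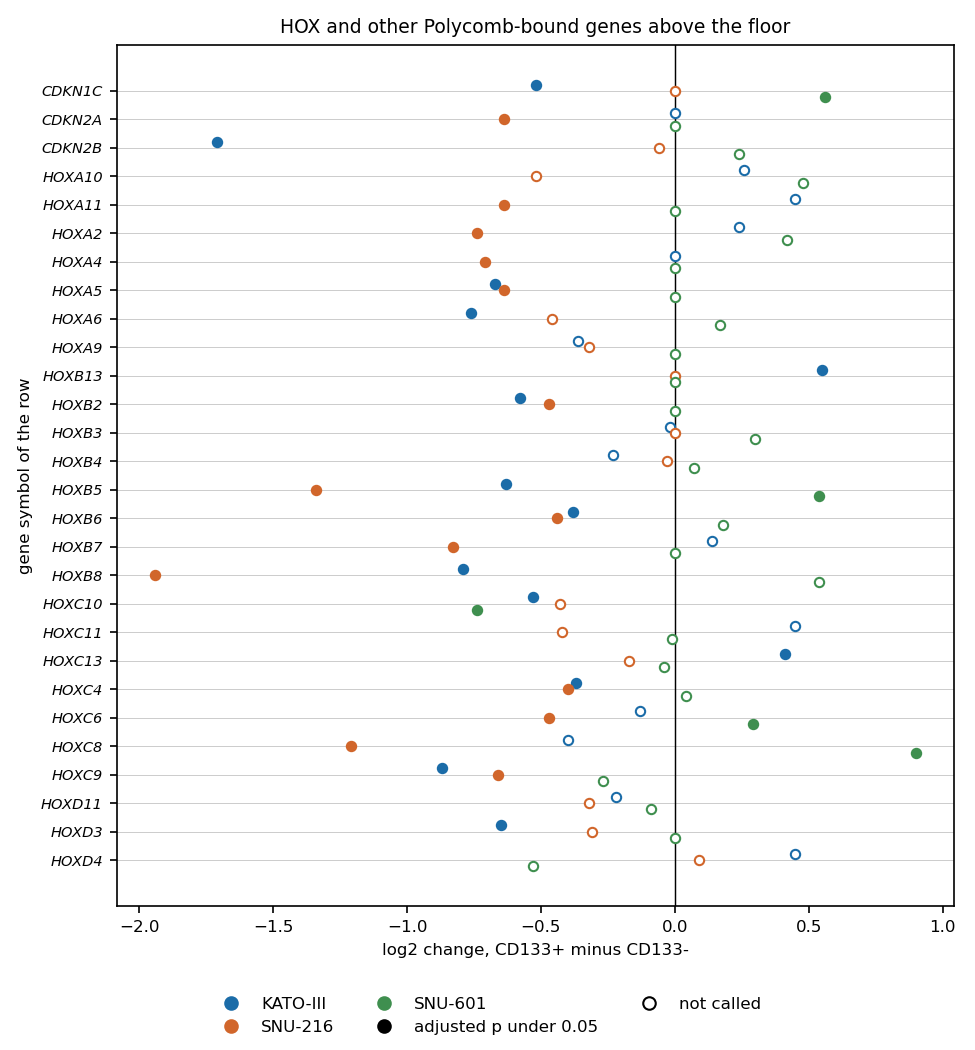
Log2 change between CD133+ and CD133- cells in each line for the 28 tested genes among HOX genes and cell cycle inhibitors; filled points passed a limma adjusted p of 0.05. The 14 filled points of SNU-216 all lie left of 0, as do 12 of 14 of KATO-III and 1 of 5 of SNU-601.

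Among the cell cycle inhibitors, CDKN2B, which arrests cells in G1 phase, read 134.2 and 149.6 in KATO-III CD133+ against 454.8 and 474 in CD133- cells (-1.71, adjusted p = 9.98e-06). CDKN2A, the neighbouring inhibitor, was above the floor on the 4 SNU-216 arrays only, at 838.2 and 842.2 against 1240 and 1380 (-0.64, adjusted p = 0.002414). Over all lines HOXC9 (-0.60, adjusted p = 0.02333) and HOXC10 (-0.57, adjusted p = 0.03001) were called lower, of 28 genes, where 2.11% of all genes were called lower. HOXC9 was lost without any one KATO-III array (adjusted p up to 0.066). HOXC10 was lost without either KATO-III CD133+ array, KATO-III CD133- replicate 2, SNU-216 CD133+ replicate 2, SNU-216 CD133- replicate 1 or SNU-601 CD133- replicate 2 (up to 0.07675).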

How the data were processed

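RNA of sorted CD133+ and CD133- cells was amplified, labelled and hybridised to Illumina HT-12 v3 BeadChips by the authors. The deposited intensity values are linear and quantile-normalized, with 1 row per gene symbol, and per the labels' processing notes BeadStudio was used. A background had been subtracted, since 32.1% of values are 0 or negative, and the rule for combining several probes of a gene is not given in the sources used here. Of 34688 rows, 93 were empty. Values under 32.7 were set to that floor, log2 was taken, and genes above it on at least 2 arrays were tested (20147, or 58.2%). This understates changes of dim genes. The number of arrays limits the precision.

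Groups came from the sample labels. limma 3.58.1 in R 4.3.3 was fitted to all genes, as 6 population means (6 residual degrees of freedom) or with the line as a block and the fraction as a term (8), with eBayes and a trend. p-values were adjusted by Benjamini-Hochberg over all genes tested, and genes with an adjusted p under 0.05 were called. The plan assumed a log2 scale and the deposited values are linear, so the floor and the log2 step were added. The code was tested on simulated data. Alternatives were other floors, an offset, centring, a second quantile normalization, filters, no trend, a replicate block, averaged arrays, a random block and leaving out each array, and lines left out in turn were added after seeing the data.

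The members and lists were chosen with earlier results of these data known. Named genes were the 10 members, PROM1, the 3 called genes with the largest change in each list of partners per line, and the 3 genes most correlated with each member; genes of the target lists were named after their values were seen. Some genes of the lists, included in the counts, are not reported here by name. Replicate numbers were not used to pair the samples in the main fit. Deviations of equally numbered arrays correlated at -0.0116 to 0.0276 over 15 pairs of populations. These values show no strong shared effect and cannot show whether equally numbered arrays shared a sort or a run. Promoter windows came from RefSeq on GRCh38.p14, and all 10 genes matched by symbol.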

Additional observations from a re-analysis of the deposited data

Results flagged for a closer look

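The difference between CD133+ and CD133- cells itself differed between the 3 lines for 6 of the 8 tested genes, by limma's test of the interaction over all genes. The adjusted p was 0.001042 for DNMT1, 0.01005 for DNMT3B, 0.003936 for UHRF1, 0.001774 for EZH2, 0.01268 for EED and 2.65e-05 for JARID2. The log2 changes in KATO-III, SNU-216 and SNU-601 were -0.01, -0.06 and 0.48 for DNMT1, -0.44, 0.60 and -0.07 for DNMT3B, and 0.24, -0.13 and 0.31 for UHRF1. They were 0.49, -0.25 and 0.31 for EZH2, 1.46, 0.35 and 0.57 for EED, and -0.13, -0.84 and 0.33 for JARID2. Over all genes, 44.4% passed the same test.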

How the results depend on the processing

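Over all lines, EED as the 1 gene called became 0 with a floor of 100, with no filter on dim genes, with a replicate block, with arrays of a population averaged first, with the population as a random block, without the line KATO-III or without SNU-601, and became 3 without SNU-216. It was also 0 with only genes above the floor on all 12 arrays, where EED was not tested, and 0 of the 8 had a signal-to-noise ratio past 1 or -1. The causes were not tested. Over all genes, the 953 calls of this comparison became 471 with the replicate block, 425 with no filter, 0 with averaged arrays, 1 with the random block, and 196, 1358 and 2850 without KATO-III, SNU-216 and SNU-601.

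Leaving out 1 array gave 2 to 4 members called in KATO-III (2 without CD133+ replicate 1), 1 to 3 in SNU-216 (1 without CD133+ replicate 2), 3 to 4 in SNU-601, 0 to 1 over all lines, 5 to 7 for the interaction, 6 to 7 for SNU-216 against KATO-III, 5 to 6 for SNU-601 against KATO-III and 4 to 6 for SNU-601 against SNU-216. In the other comparisons the replicate block kept the count of members called within 1.5 times, while it ended the calls of DNMT3B in KATO-III (adjusted p = 0.0511) and EZH2 in SNU-216 (0.06213) and added EED in SNU-601 (0.04654). Of 174 recomputed counts, 154 stayed within 1.5 times, and of 1368 recomputed member values, 18 changed sign.

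None of the values that changed sign was called. Over all lines DNMT3B became -0.01 with a floor of 100 and -0.25 without SNU-216, SUZ12 -2.5e-03 and JARID2 0.10 without SNU-216, and DNMT1 -0.03 without SNU-601. Centring on the median gave DNMT1 in KATO-III 0.03, SUZ12 in SNU-601 0.01 and JARID2 between SNU-601 and SNU-216 -0.01. Leaving out 1 array moved DNMT1 in KATO-III between -0.07 and 0.05, SUZ12 in KATO-III between -0.04 and 0.08, DNMT3B over all lines between -0.08 and 0.11 and in SNU-601 between -0.21 and 0.08, and EZH1 between -0.57 and 0.38 in SNU-216 and between -0.41 and 0.07 for SNU-601 against SNU-216. DNMT3B, EED and EZH1 were dim, and their signal over background limits their precision.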

Other observations

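Of 25 genes known to be silenced by DNA methylation in tumours or somatic tissue, 13 were tested. Of these, 10 were called between SNU-216 and KATO-III, 8 between SNU-601 and KATO-III and 10 between SNU-601 and SNU-216, against 62.0%, 58.6% and 56.5% of all genes. Between fractions, 6 were called in KATO-III, 4 in SNU-216 and 2 in SNU-601, against 39.3%, 28.6% and 16.4% of all genes. Genes under the floor on every array of a line could not be called there, such as GATA5 in KATO-III and SNU-216 and MAGEA3 in SNU-601. CDKN2A, MAGEA4 and TIMP3 were above the floor in SNU-216 only, GATA5 in SNU-601 only and MAGEB2 in KATO-III only. They passed the filter through that line alone, which favours a call against the other lines. The counts between lines are therefore a description and do not compare evenly with the shares of all genes. The other 12 of the 25 genes, among them the germline genes DAZL, DDX4, MAEL and SYCP3, were not above the floor on 2 arrays.

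MAGEB2, a cancer-testis gene, was above the floor in KATO-III only, at 1233 and 1207 in CD133+ and 560.9 and 603.3 in CD133- cells (1.07, adjusted p = 7.62e-05). MAGEA6, of the same family, read 513 and 478.4 against 320 and 332.2 in KATO-III (0.60) and 1533 to 1712 on the SNU-216 arrays. TIMP3, an inhibitor of metalloproteinases, was above the floor on the SNU-216 CD133+ arrays only. It read 87.95 and 73.81 there, against -0.5619 and 1.413 in CD133- cells of that line. TIMP3 passed the filter through those CD133+ arrays alone, and every other array was set to the floor. Its call is included in the SNU-216 count above, but its p-value is therefore not used. MGMT, a DNA repair gene, was lower in KATO-III CD133+ cells (-0.38, adjusted p = 0.006844) and higher in those of SNU-601 (0.45, adjusted p = 0.008418), calls that were lost without KATO-III CD133+ replicate 2 or CD133- replicate 1 (up to 0.05864), and without SNU-601 CD133+ replicate 1 (0.05874).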
